A study of Homo sapiens with 83 samples.

Results

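The 9 genes described here encode proteins that modify the proteins of the circadian clock or travel with them, and they were taken by symbol from the 60237 genes of the expression table. They are CSNK1D, CSNK1E and CSNK1A1 (casein kinase 1 delta, epsilon and alpha), GSK3B (glycogen synthase kinase 3 beta), BTRC and FBXW11 (the paired beta-TrCP F-box proteins), SIRT1 (an NAD-dependent deacetylase), NAMPT (the rate-limiting enzyme of NAD salvage) and NONO (an RNA- and DNA-binding protein found with PER proteins). All 9 were above 0 in each of the 83 libraries and passed the filter on low values in both cell lines. On GRCh38 (Gencode 44) they lie apart, at chr3:119821321-120094994 (GSK3B), chr5:149492982-149551471 (CSNK1A1), chr5:171861549-172006873 (FBXW11), chr7:106248298-106285966 (NAMPT), chr10:67884656-67918390 (SIRT1), chr10:101354033-101557321 (BTRC), chr17:82239023-82273700 (CSNK1D), chr22:38290691-38318084 (CSNK1E) and chrX:71254814-71301522 (NONO).

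SHEP and SKNAS, both established lines of human neuroblastoma, carried N-MYC-ER, in which N-MYC is joined to the hormone-binding part of the estrogen receptor and works once 4-hydroxytamoxifen (4OHT) binds it. The MYC-ON cultures received 4OHT for 24 h and the MYC-OFF cultures ethanol, and both then received dexamethasone, which sets the clocks of a culture to a common phase. RNA was taken every 4 h from CT24, where CT is the number of hours after dexamethasone. SHEP had 2 time series per condition up to CT76 (28 libraries each), whereas SKNAS had 1 series, of 14 libraries for MYC-OFF and 13 for MYC-ON, the latter ending at CT72. No cells without the fusion were analysed here, so the drug and N-MYC cannot be told apart, and p-values in SKNAS measure the spread between time points of a single series. The SHEP level fits likewise took each library as a replicate, with no term for the series. Their p-values measure the spread between libraries of 2 series per condition, not between many independent repeats.

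In the mammalian clock, CLOCK and its partner, encoded by ARNTL, switch on the PER and CRY genes, whose proteins return to the nucleus and shut off their own transcription. The delta and epsilon forms of casein kinase 1 bind and phosphorylate PER proteins, beta-TrCP then marks phosphorylated PER for the proteasome, and GSK3B phosphorylates several clock proteins. SIRT1 removes acetyl groups from clock proteins with NAD that NAMPT helps to supply, and NAMPT is itself known as a clock target through E-boxes, the sequence CACGTG that CLOCK and MYC proteins both bind.

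The start regions of 7 members were at hand from RefSeq (GRCh38.p14, 250 bases before to 50 bases after the start), and those of the NAD pair are shown because NAMPT had the largest change with N-MYC activation of the 9 in SHEP and SIRT1 held the CACGTG matches. Capitals mark CACGTG and its variant CACGCG, which reads CGCGTG on the opposite strand, and each region is given 5′ to 3′ on the strand of its gene.
SIRT1 (chr10:67884406-67884705, + strand): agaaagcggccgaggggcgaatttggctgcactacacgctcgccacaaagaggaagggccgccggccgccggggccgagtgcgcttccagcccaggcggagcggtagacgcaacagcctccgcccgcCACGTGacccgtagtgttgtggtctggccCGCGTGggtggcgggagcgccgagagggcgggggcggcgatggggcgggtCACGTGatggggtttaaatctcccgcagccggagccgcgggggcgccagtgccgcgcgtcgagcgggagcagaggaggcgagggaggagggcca
NAMPT (chr7:106284934-106285233, - strand): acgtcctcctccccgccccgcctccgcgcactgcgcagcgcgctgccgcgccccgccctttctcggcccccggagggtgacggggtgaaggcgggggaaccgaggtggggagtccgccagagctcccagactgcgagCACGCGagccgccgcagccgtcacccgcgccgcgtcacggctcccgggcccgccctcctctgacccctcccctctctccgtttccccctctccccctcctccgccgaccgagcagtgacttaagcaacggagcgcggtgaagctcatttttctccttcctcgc
SIRT1 held CACGTG at -123 and -44 and the variant at -94, counted from its start, and NAMPT held the variant at -113. CACGTG occurred in 7.26% of 35116 promoters of this length, with 2 or more copies in 0.664%, and the variant occurred in 11.4%. The variant was also present in the NONO region (-225) and in 1 of 2 CSNK1E regions (-173), while GSK3B, CSNK1A1 and FBXW11 held neither and CSNK1D and BTRC were not covered. These are matches of letters in a window and say nothing of binding.

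Levels are given in TPM, which is abundance per transcript length and per 1000000 transcripts, so that genes can be compared with each other, and the depth of single libraries is unknown. The median over genes of log2(TPM + 1) lay between 3.93 and 4.17 in the SHEP libraries, but between 2.97 and 4.38 in SKNAS MYC-OFF and between 2.76 and 4.25 in SKNAS MYC-ON. It was under 3.8 in 4 of 14 SKNAS MYC-OFF and 10 of 13 SKNAS MYC-ON libraries, and the SKNAS levels and counts are given with and without them, whereas SKNAS trends, rhythms and correlations are given on all libraries. Without them, CT32 and CT44 are the only time points with a SKNAS library of both conditions. With CT as a factor, the N-MYC change in SKNAS then rests on those time points. A call lost in that fit cannot show that a change is absent. Of 7 adrenergic neuroblastoma markers, PHOX2A was at a median of 235 TPM in SKNAS MYC-OFF, 64.3 TPM in SKNAS MYC-ON and 0 in SHEP. Of 3 markers of other cell types, PTPRC, a leukocyte phosphatase, was at a median of 94.5 TPM (13.03 to 132) in SKNAS MYC-OFF, 17.7 TPM (3.13 to 59.7) in SKNAS MYC-ON and 0 in SHEP, and PECAM1 and EPCAM reached at most 0.439 and 2.46 TPM. With N-MYC activation in SKNAS, 4 of 4 adrenergic markers tested and PTPRC (-1.94) were lower, and of 6 mesenchymal markers 1 was higher and 2 were lower, while without the libraries of low median PHOX2A, GATA3 and FN1 were the markers called, each lower. In SHEP the adrenergic HAND2 was higher (0.72, against -0.99 in SKNAS), and of 6 mesenchymal markers PRRX1 was higher (1.61) and FN1 (-2.24), SNAI2 (-0.70) and YAP1 (-0.26) were lower. The part of these markers in the results of either line was not tested.

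The first comparison asked how the level of each gene differed between MYC-ON and MYC-OFF in SHEP. NAMPT was higher in MYC-ON than in MYC-OFF in every library, CSNK1E was higher by a smaller amount, and CSNK1A1 and BTRC were lower. The other 5 were not called, where a call needed a change of at least 0.15 and, in limma with Benjamini-Hochberg adjustment, an adjusted p up to 0.05 on the log2(TPM + 1) scale, which understates changes of low genes. Of the 9 members 2 were higher, beside 33.0% of 14362 genes, and 2 were lower, beside 38.9%, and these shares were not tested against the background. The median change was -0.08 over the members and -0.04 over all genes.

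NAMPT, on chromosome 7, was at 82.8 to 114 TPM (median 101) in the 28 MYC-OFF libraries and at 157 to 329 TPM (median 210) in the 28 MYC-ON libraries. The groups did not overlap, and MYC-ON was higher in 28 of 28 pairs of the same CT and series. How many of all genes, or of ratios between genes, had groups without overlap was not counted in either line. The change was 1.07 (SE 0.05, limma adjusted p = 1.37e-24), and it was also 1.07 after adding the TPM of its pseudogene NAMPTP1, which went from a median of 2.25 to 4.93 TPM and may share reads with it. SIRT1, which consumes NAD, was at 9.49 to 15.1 TPM (median 12.7) in MYC-OFF and 6.98 to 15.4 TPM (median 12.4) in MYC-ON, with a change of -0.08 (SE 0.05, limma adjusted p = 0.157) that became 0.10 with the library median in the fit. The ratio of NAMPT to SIRT1 within a library was 6.53 to 9.99 in MYC-OFF and 10.3 to 38.14 in MYC-ON, again without overlap.

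Among the casein kinases, CSNK1D was at 175 to 238 TPM (median 195) in MYC-OFF and 149 to 210 TPM (median 178) in MYC-ON. It was lower in 26 of 28 pairs, and its change of -0.15 (SE 0.03, limma adjusted p = 1.32e-06) fell just short of the size required. CSNK1E was at 49.2 to 75.1 TPM (median 63.0) and 61.4 to 114 TPM (median 68.7), higher in 23 of 28 pairs, with a change of 0.20 (SE 0.04, limma adjusted p = 8.20e-05). This call was lost without replicate 2 (0.19, limma adjusted p = 0.0555) and with each series averaged to 1 replicate (limma adjusted p = 0.0835). The delta to epsilon ratio had a median of 3.15 in MYC-OFF and 2.56 in MYC-ON, and the groups overlapped. CSNK1A1, known from the destruction of beta-catenin, was at 97.7 to 146 TPM (median 128) and 85.3 to 137 TPM (median 103), lower in 27 of 28 pairs, with a change of -0.27 (SE 0.03, limma adjusted p = 1.04e-09). GSK3B, at 20.7 to 35.1 TPM (median 30.1) and 23.1 to 44.1 TPM (median 30.7), was higher in 14 of 28 pairs, with a change of 0.06 (SE 0.05, limma adjusted p = 0.273).

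Of the F-box pair, BTRC was at 8.55 to 18.4 TPM (median 13.8) in MYC-OFF and 8.16 to 15.1 TPM (median 10.6) in MYC-ON. It was lower in 26 of 28 pairs, with a change of -0.35 (SE 0.06, limma adjusted p = 4.72e-07) that was -0.17 with the library median in the fit (limma adjusted p = 0.00802). FBXW11 was the more abundant, at 37.5 to 54.0 TPM (median 46.0) and 33.6 to 49.1 TPM (median 42.0), lower in 25 of 28 pairs, and its change of -0.13 (SE 0.03, limma adjusted p = 0.000443) was under the size required and was -0.024 with the library median in the fit (limma adjusted p = 0.522). The FBXW11 to BTRC ratio had a median of 3.23 in MYC-OFF and 3.98 in MYC-ON. NONO, the most abundant member, was at 340 to 418 TPM (median 388) and 338 to 542 TPM (median 393), with a change of 0.03 (SE 0.04, limma adjusted p = 0.439) that was -0.04 without replicate 2. Its highest MYC-ON values were 485, 478, 506 and 542 TPM at CT52, CT56, CT60 and CT64 of series 2, where series 1 was at 365, 370, 352 and 346 TPM.

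**Figure D1:**
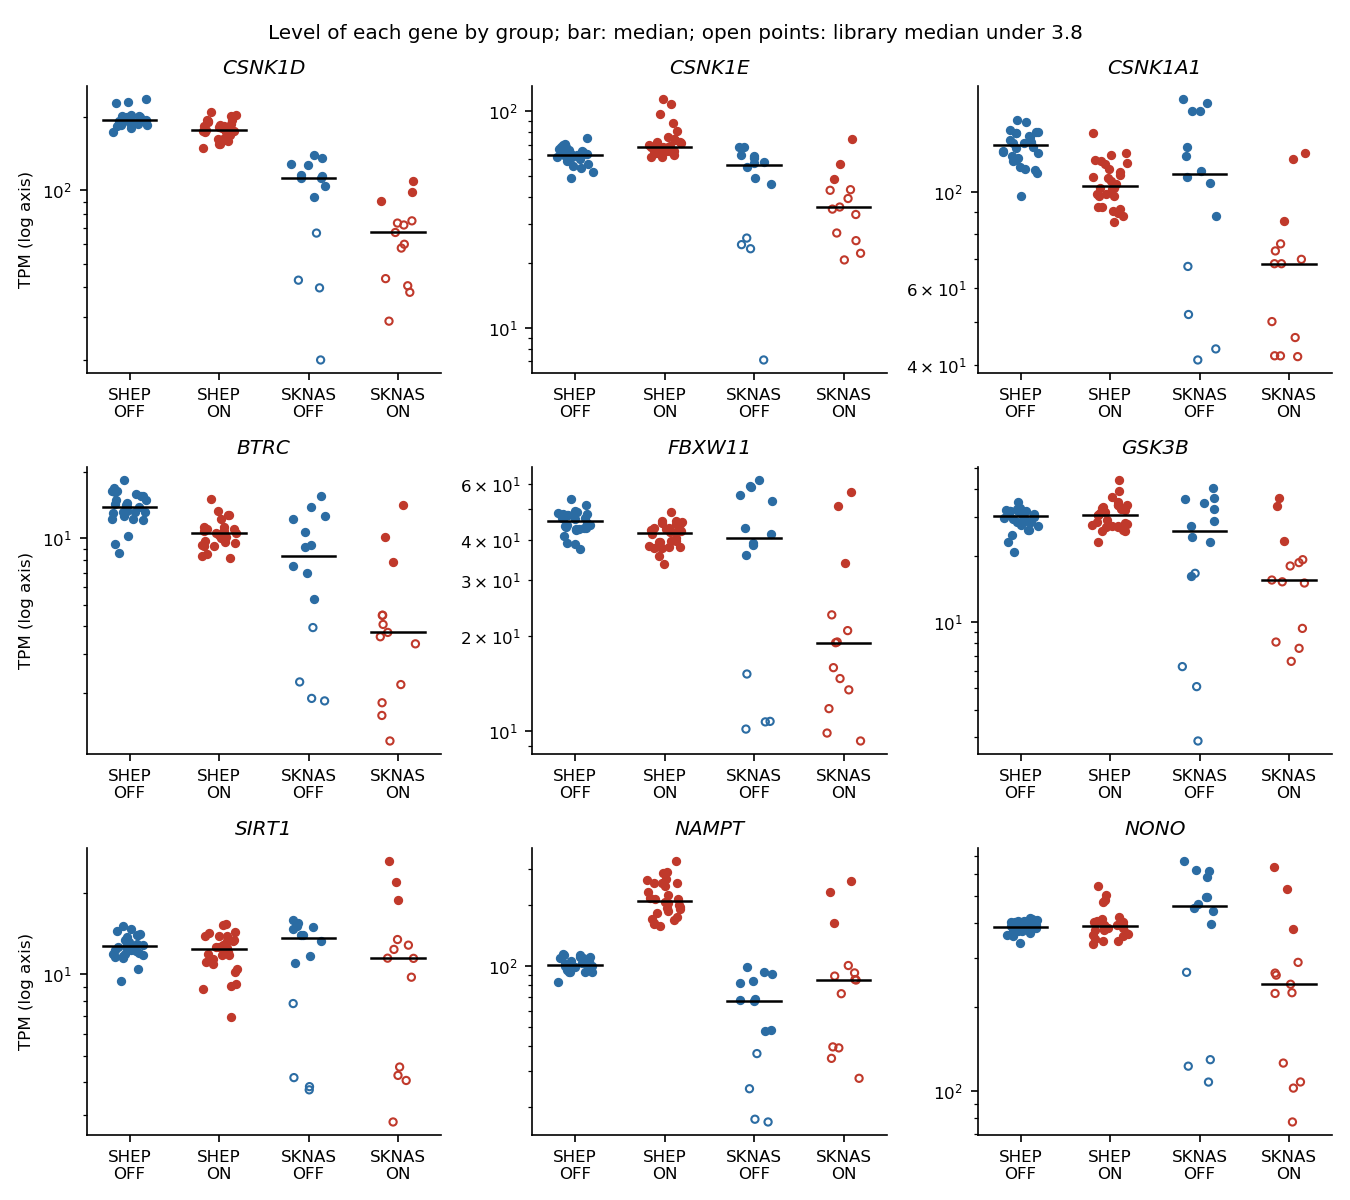
TPM (log axis) of the 9 genes in every library of the 4 groups, with a bar at the group median and open points for libraries with a median log2(TPM + 1) under 3.8. SHEP MYC-ON (157 to 329 TPM) lies wholly above SHEP MYC-OFF (82.8 to 114 TPM) for NAMPT, and the open SKNAS points lie low in each panel.

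The second question was how the members moved along the time course. In SHEP MYC-OFF none of the 9 had a linear trend, where 5.78% of 14264 genes rose and 10.1% fell. In SHEP MYC-ON, NAMPT, CSNK1E and GSK3B rose, beside 20.5% of 14261 genes, and SIRT1, CSNK1A1 and FBXW11 fell, beside 37.0%. Over the same time the library median of MYC-ON went from 4.09 ± 0.034 (SD, n = 6) at CT24 to CT32 to 3.96 ± 0.028 (n = 6) at CT68 to CT76.

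NAMPT in MYC-ON was at 175 ± 17.4 TPM (SD, n = 6) over the first 3 time points and 275 ± 29.6 TPM (n = 6) over the last 3, against 102 ± 5.94 and 105 ± 8.19 TPM in MYC-OFF. Its slope in MYC-ON was 0.37 per 24 h on the log2 scale (SE 0.04, limma adjusted p = 1.53e-08), with 0.27 in series 1 and 0.47 in series 2. CSNK1E went from 65.9 ± 2.76 to 91.5 ± 18.6 TPM (n = 6 each), with a slope of 0.24 (SE 0.05, limma adjusted p = 6.86e-05). In MYC-OFF it was at 66.7 ± 5.47 and 62.8 ± 6.34 TPM, so that MYC-ON was the higher in the last window and not in the first. In MYC-ON, series 1 stood at 75.9, 81.3, 88.5, 97.5 and 114 TPM from CT60 to CT76, whereas series 2 stayed at 68.4 to 74.9 TPM up to CT72 and reached 108 TPM at CT76. GSK3B went from 26.9 ± 1.91 to 33.9 ± 1.94 TPM (slope 0.22, SE 0.04, limma adjusted p = 2.72e-05) and was highest in both series at CT64, at 39.1 and 44.1 TPM. Its MYC-OFF means were 29.6 ± 2.53 and 27.9 ± 3.45 TPM, above MYC-ON in the first window and below it in the last. The level changes given before are averages over all CTs.

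SIRT1 went from 13.6 ± 1.02 to 9.90 ± 1.97 TPM (n = 6 each) in MYC-ON, with a slope of -0.23 (SE 0.05, limma adjusted p = 9.66e-05). It was lowest in both series at CT76, at 6.98 and 9.08 TPM, and its slope was -0.35 in series 1 and -0.12 in series 2. With the library median in the fit, the SIRT1 slope was -0.12 (limma adjusted p = 0.0738) and was no longer called. CSNK1A1 went from 118 ± 10.1 to 95.3 ± 13.6 TPM (slope -0.17, SE 0.03, limma adjusted p = 0.000132). FBXW11 went from 43.1 ± 2.64 to 37.4 ± 2.34 TPM (slope -0.08, SE 0.03, limma adjusted p = 0.0425), and its slope was 0.02 with the library median in the fit. Without replicate 1, NAMPT and GSK3B kept a called slope and CSNK1E, SIRT1, CSNK1A1 and FBXW11 did not, with adjusted p from 0.0533 to 0.165.

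**Figure D2:**
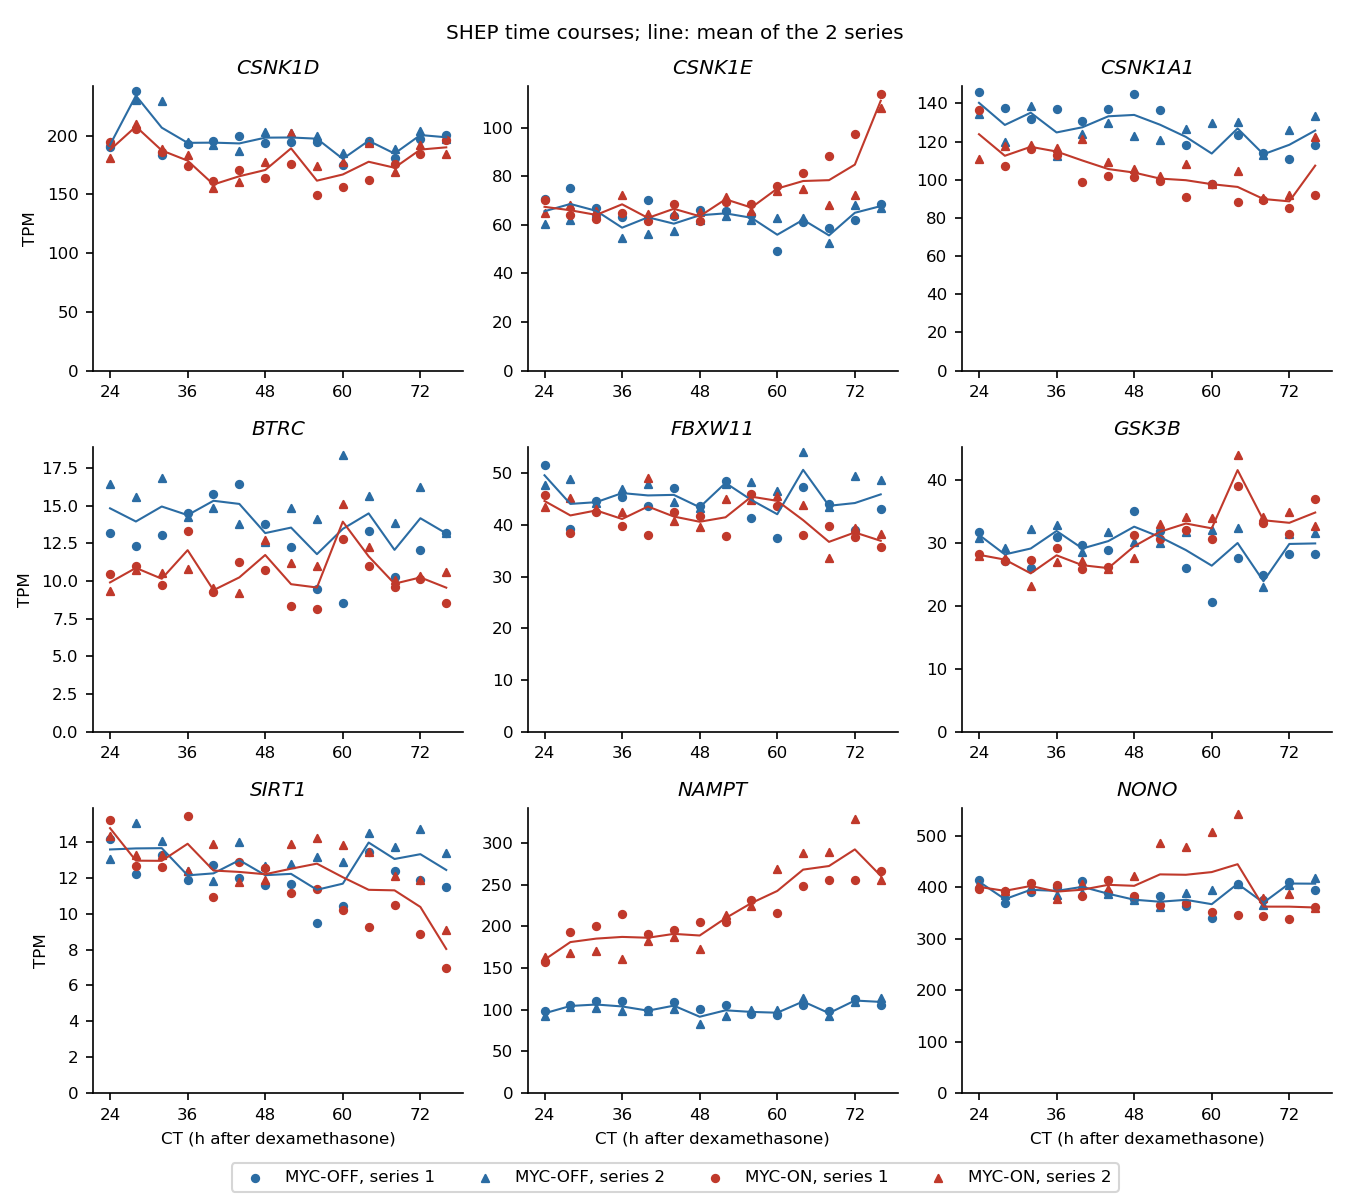
TPM against CT (h after dexamethasone) in SHEP, with circles for series 1, triangles for series 2 and lines through the mean of the series. In MYC-ON, NAMPT goes from 175 TPM over the first 3 time points to 275 TPM over the last 3, while MYC-OFF is at 102 and 105 TPM.

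The slopes of 4 members differed between MYC-ON and MYC-OFF in SHEP, beside 43.4% of 14362 genes. The difference was 0.34 per 24 h for NAMPT (SE 0.05, limma adjusted p = 2.30e-07), 0.28 for GSK3B (SE 0.06, limma adjusted p = 0.000105), 0.27 for CSNK1E (SE 0.06, limma adjusted p = 0.000141) and -0.21 for SIRT1 (SE 0.06, limma adjusted p = 0.00257). Without replicate 1 the differences of CSNK1E (0.12, limma adjusted p = 0.239) and SIRT1 (-0.14, limma adjusted p = 0.137) were not called, whereas those of NAMPT and GSK3B were. In SKNAS no member had a called trend, where 0.0% of 14119 genes had one in MYC-OFF and 0.112% of 13365 in MYC-ON. No slope difference between conditions was called, where 0.0792% of 13886 genes had one. The SKNAS MYC-OFF slopes ran from -0.84 (GSK3B) to -0.57 (CSNK1D), with limma adjusted p from 0.131 to 0.156 and a median over all genes of -0.31. In SKNAS MYC-ON they ran from -0.50 (NAMPT) to -0.24 (CSNK1A1), with a median over all genes of -0.20. In this single series, the lack of a call does not show that the courses were flat.

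**Figure D3:**
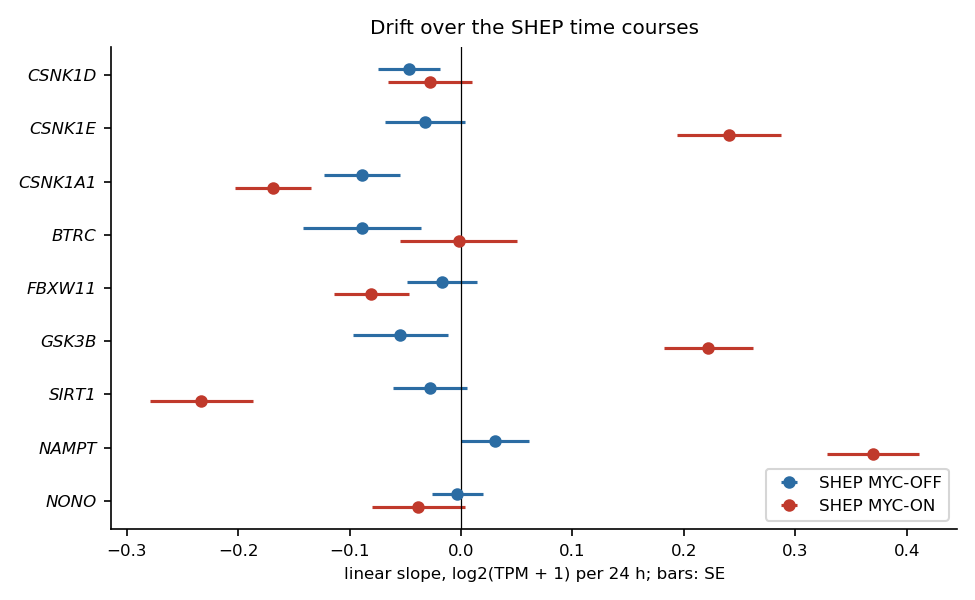
Linear slope of log2(TPM + 1) per 24 h in SHEP MYC-OFF and MYC-ON, with bars for the SE. In MYC-ON the slopes of NAMPT (0.37), CSNK1E (0.24) and GSK3B (0.22) lie above 0 and those of SIRT1 (-0.23), CSNK1A1 (-0.17) and FBXW11 (-0.08) below it, and no MYC-OFF slope was called.

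A 24 h rhythm was then tested with a cosine fit and a limma F test. None of the 9 passed in any group, where the genes passing were 0.0911% of 14264 for SHEP MYC-OFF, 0.021% of 14261 for SHEP MYC-ON and 0.0% in each SKNAS group, with 1487, 1528, 63 and 46 genes at an unadjusted p under 0.05. CSNK1E in SHEP MYC-OFF had an amplitude of 0.09 on the log2 scale (unadjusted limma p = 0.0121, adjusted p = 0.352) and a peak 3.46 h into the 24 h cycle, at 1.85 h in series 1 and 5.02 h in series 2. CSNK1D in SHEP MYC-ON had an amplitude of 0.10 (unadjusted limma p = 0.0145, adjusted p = 0.385) and a peak at 3.57 h, at 2.03 h in series 1 and 5.19 h in series 2. No series reached an unadjusted p under 0.05 on its own for either gene in these groups, and the difference between the series was not tested.

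The rhythm differed between MYC-ON and MYC-OFF for no member and for 0.0% of genes in each line, where the lowest limma adjusted p was 0.381 for SHEP and 0.978 for SKNAS and 709 and 73 genes at an unadjusted p under 0.05. A damped oscillator, whose period is chosen to fit the data so that its p-values are too small, called CSNK1E in SHEP MYC-OFF (period 24.5 h) and CSNK1D in SHEP MYC-ON (22.5 h) and no member in SKNAS. Its calls took in 14.2% of 19584 genes for SHEP MYC-OFF and 11.9% of 20142 for SHEP MYC-ON. For SKNAS they took in 4.99% of 18794 genes with ethanol and 3.66% of 17940 with 4OHT. SHEP calls needed an adjusted p under 0.05 and SKNAS calls one under 0.1, so the shares of the lines are at unlike limits. In both lines a call also needed a period of 20 to 28 h and a damping coefficient of at most 0.15 either way.

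In SKNAS, CSNK1A1 was the 1 member called with N-MYC activation, and NAMPT was called after rescaling, with the library median in the fit, and without the libraries of low median. On all 27 libraries 0 of 9 members were higher, beside 13.7% of 13886 genes, and 1 was lower, beside 34.4%. The median change was -0.46 over the members and -0.29 over all genes, and over all genes it was 0.04 after median-of-ratios rescaling and 0.01 with the library median in the fit. The genes called were 1903 higher and 4772 lower, against 3854 and 3236 after rescaling, 3924 and 3620 with the library median in the fit, and 455 and 799 without the libraries of low median. CSNK1A1 was at 41.0 to 164 TPM (median 110) in MYC-OFF and 41.7 to 123 TPM (median 68.3) in MYC-ON, lower in 10 of 13 pairs, with a change of -0.56 (SE 0.21, limma adjusted p = 0.0393). That call was lost without the libraries of low median (-0.15, limma adjusted p = 0.837) and with the library median in the fit (-0.06, limma adjusted p = 0.588). The first of these fits compares the conditions at CT32 and CT44 alone.

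NAMPT was at 16.9 to 98.0 TPM (median 67.0) in SKNAS MYC-OFF and 27.7 to 262 TPM (median 85.4) in MYC-ON, higher in 9 of 13 pairs, with a change of 0.62 (SE 0.28, limma adjusted p = 0.0834). Among libraries with a median of at least 3.8 it was at 47.3 to 98.0 TPM in the 10 of MYC-OFF and at 162, 230 and 262 TPM in the 3 of MYC-ON, without overlap. Its change was 1.34 in those libraries (limma adjusted p = 0.0225), 1.33 with the library median in the fit (limma adjusted p = 1.03e-08) and 0.99 after median-of-ratios rescaling (limma adjusted p = 0.000115). The fit in the libraries of higher median compares the conditions at CT32 and CT44 alone, where both kept a library. SIRT1 was at 11.01 to 15.9 TPM in those 10 MYC-OFF libraries and at 18.8, 21.96 and 26.3 TPM in the 3 of MYC-ON, again without overlap. Its change was -0.04 on all libraries (SE 0.25, limma adjusted p = 0.899), 0.47 in those of higher median (limma adjusted p = 0.407) and 0.56 with the library median in the fit (limma adjusted p = 0.000279). The ratio of NAMPT to SIRT1 within a library was 4.11 to 6.15 over all 14 MYC-OFF libraries and 6.65 to 10.5 over all 13 MYC-ON libraries, so that the groups did not overlap. The share of all genes or ratios without overlap was not counted for SKNAS.

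The remaining members were not called in SKNAS on all libraries. CSNK1D was at 20.05 to 140 TPM (median 112) in MYC-OFF and 29.0 to 109 TPM (median 67.1) in MYC-ON (change -0.46, limma adjusted p = 0.0952), and CSNK1E at 7.10 to 68.5 TPM (median 56.6) and 20.6 to 74.2 TPM (median 36.1) (change -0.17, limma adjusted p = 0.573). BTRC was at 1.84 to 15.6 TPM (median 8.35) and 1.21 to 14.1 TPM (median 3.76), with a change of -0.64 (limma adjusted p = 0.0775), and FBXW11 at 10.2 to 61.7 TPM (median 40.5) and 9.33 to 56.6 TPM (median 19.0), with a change of -0.66 (limma adjusted p = 0.0855). GSK3B was at 2.88 to 40.6 TPM (median 25.8) and 6.63 to 36.5 TPM (median 15.5), with a change of -0.27 (limma adjusted p = 0.396), and NONO at 108 to 670 TPM (median 462) and 77.3 to 639 TPM (median 242), with a change of -0.67 (limma adjusted p = 0.0592). The groups overlapped for each of these genes. Without the libraries of low median the changes were -0.36 for CSNK1D, 0.025 for CSNK1E, 0.041 for BTRC, -0.045 for FBXW11, 0.026 for GSK3B and -0.22 for NONO, with limma adjusted p from 0.552 to 0.979. With the library median in the fit all 6 were above 0, at 0.038 to 0.36, and CSNK1E was called (limma adjusted p = 0.0339).

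**Figure D4:**
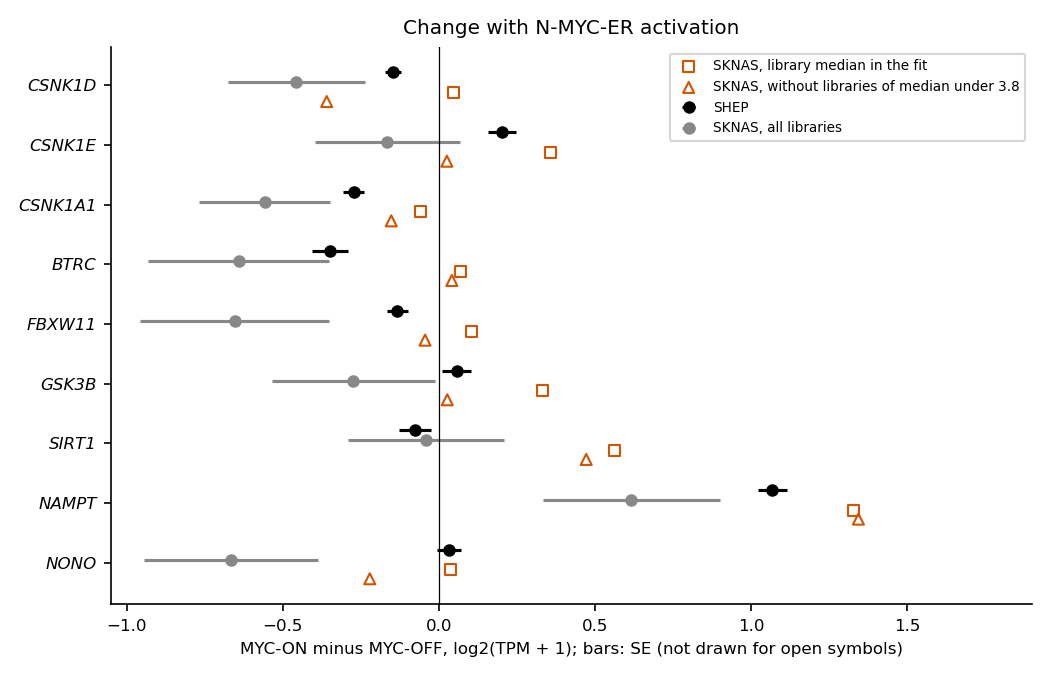
Change from MYC-OFF to MYC-ON on the log2(TPM + 1) scale for SHEP (black) and SKNAS (grey), with bars for the SE, and for SKNAS with the library median in the fit (squares) or without libraries of median under 3.8 (triangles). NAMPT lies above 0 throughout (1.07 in SHEP, and 0.62, 1.33 and 1.34 in SKNAS), and CSNK1A1 lies below 0 throughout.

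**Figure D5:**
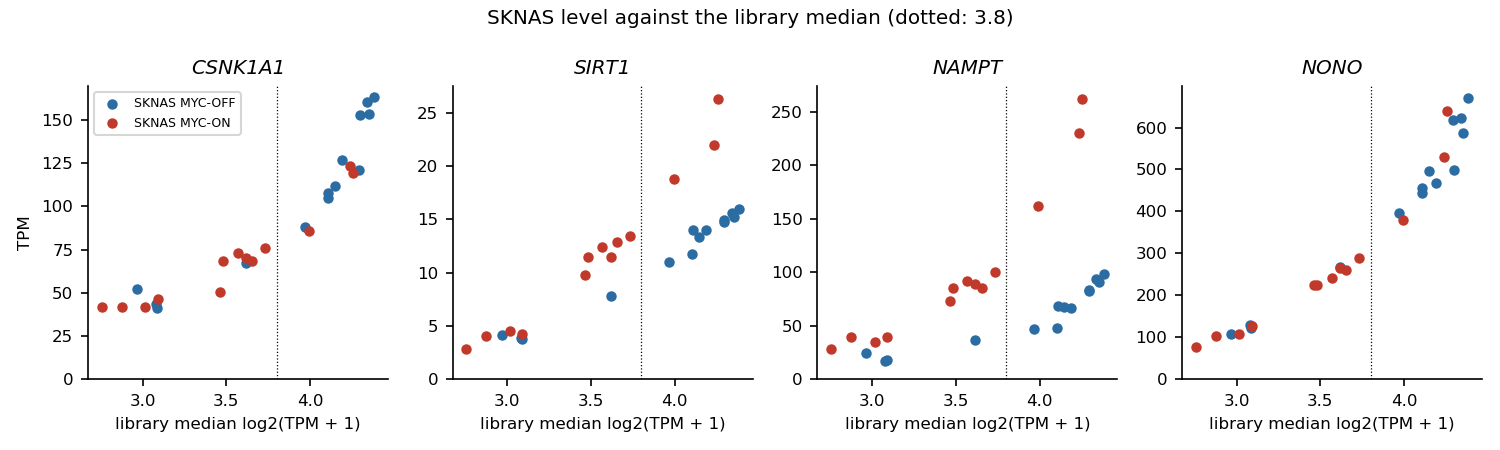
TPM of CSNK1A1, SIRT1, NAMPT and NONO in each SKNAS library against the library median of log2(TPM + 1), with a dotted line at 3.8. All 4 are higher in libraries of higher median, and right of the line the 3 MYC-ON libraries lie above the 10 of MYC-OFF for SIRT1 and NAMPT.

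The members moved with each other and with the library median across SKNAS libraries. Over the 36 pairs of members, Pearson's r of log2(TPM + 1) was 0.813 to 0.992 in SKNAS MYC-OFF (14 libraries) and 0.906 to 0.991 in SKNAS MYC-ON (13), against 0.028 to 0.697 in SHEP MYC-OFF and -0.778 to 0.812 in SHEP MYC-ON (28 each). The r of a member with the library median was 0.919 to 0.995 in SKNAS MYC-OFF and 0.953 to 0.995 in SKNAS MYC-ON. These are descriptions of libraries that share a series and differ in time and in their median. The same r was not taken over other genes, so the shared movement is not shown to be particular to the members.

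The effect of N-MYC differed between the lines for 4 members, beside 51.5% of 14870 genes. SKNAS minus SHEP was -0.70 for NONO (SE 0.18, limma adjusted p = 0.00105), -0.52 for FBXW11 (SE 0.19, limma adjusted p = 0.0215), -0.45 for NAMPT (SE 0.19, limma adjusted p = 0.0402) and -0.37 for CSNK1E (SE 0.16, limma adjusted p = 0.0456). Without the SKNAS libraries of low median none of these 4 was called (limma adjusted p from 0.340 to 0.794), the differences of FBXW11 and NAMPT turned to 0.09 and 0.28, and SIRT1 was called at 0.55 (limma adjusted p = 0.0459). The SKNAS part of that fit rests on CT32 and CT44 alone.

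The levels of the lines were compared within each condition. In MYC-OFF 7 members were lower in SKNAS, beside 47.0% of 14870 genes, and 0 higher, beside 31.9%, and in MYC-ON 8 were lower, beside 57.8%, and 0 higher, beside 26.9%. CSNK1D differed most, by -1.19 in MYC-OFF (SE 0.13, limma adjusted p = 1.07e-13) and -1.51 in MYC-ON (SE 0.13, limma adjusted p = 1.36e-17), and its SKNAS libraries of higher median (94.4 to 140 TPM in MYC-OFF) also lay wholly below SHEP. How many of all genes lay apart between the lines in this way was not counted. Without the libraries of low median, CSNK1D (-0.73, limma adjusted p = 3.07e-24), BTRC (-0.44, limma adjusted p = 2.79e-05) and NAMPT (-0.43, limma adjusted p = 3.49e-05) were lower and NONO was higher (0.43, limma adjusted p = 1.43e-08) in MYC-OFF. In MYC-ON CSNK1D was then lower (-0.86, limma adjusted p = 1.38e-16), and SIRT1 (0.79, limma adjusted p = 3.76e-08) and NONO (0.33, limma adjusted p = 0.00650) were higher. These fits kept 10 MYC-OFF and 3 MYC-ON libraries of the single SKNAS series. In all comparisons of the lines, line, series and library quality cannot be told apart, and the p-values measure the spread between libraries. In the order of medians NAMPT was highest in SHEP MYC-ON, then SHEP MYC-OFF, SKNAS MYC-ON and SKNAS MYC-OFF, where neither SKNAS MYC-ON and SHEP MYC-OFF (-0.31, SE 0.19, limma adjusted p = 0.115) nor the SKNAS groups differed beyond their spread on all libraries.

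Other genes of the same machinery were counted from fixed lists, and the counts stand beside 33.0% of all genes higher and 38.9% lower in SHEP. In SHEP, 3 of 13 other clock kinases were higher and 3 lower, with CDK5, a neuronal kinase, at -0.75 (SE 0.05, limma adjusted p = 1.14e-19) and CSNK2A1, a catalytic subunit of casein kinase 2, at 0.65 (SE 0.04, limma adjusted p = 3.42e-20). Of 5 phosphatases 2 were higher and 2 lower, with PPP1CB at -0.81 and PPP1CA at -0.59, both catalytic subunits of protein phosphatase 1. Of 14 ubiquitin ligase and deubiquitinase genes 8 were higher and 3 lower, with FBXL21P, annotated as a pseudogene, at -1.64 and STUB1, a ligase that works with chaperones, at 0.86. Of 11 acetylation and NAD genes 3 were higher and 5 lower, with NMNAT2, an NAD synthesis enzyme, at -1.18 and CREBBP, an acetyltransferase, at -0.62. Of 8 PER complex and paraspeckle genes 4 were higher and 2 lower, with CIPC, an inhibitor of CLOCK, at 1.11 and the helicase DDX5 at -0.31. Of 8 clock genes whose products are the substrates, 6 were higher and 1 lower, with NR1D1 at 2.63 (SE 0.05) and PER3 at 2.14 (SE 0.08).

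In SKNAS the counts of higher and lower genes were 0 and 4 of 12 kinases, 0 and 2 of 5 phosphatases, 4 and 3 of 14 ligase genes, 3 and 1 of 10 acetylation and NAD genes, 1 and 3 of 8 PER complex genes, and 4 and 1 of 8 clock genes, beside 13.7% of all genes higher and 34.4% lower. With the library median in the fit they were 2 and 1, 1 and 2, 8 and 2, 4 and 1, 4 and 2, and 7 and 1 in the same order, beside 28.3% and 26.1% of all genes. Without the libraries of low median they were 0 and 0, 0 and 0, 1 and 1, 0 and 0, 1 and 0, and 3 and 1, beside 3.20% and 5.62%. On all libraries CDK5 (-0.63), PPP1CB (-0.91), PPP1CA (-0.63), FBXL21P (-1.98), STUB1 (1.73), CIPC (1.202), DDX5 (-0.96), NR1D1 (2.51) and PER3 (1.27) were called in the same direction as in SHEP, and no gene of these 6 lists was called in opposite directions. Of these, FBXL21P (-1.35), STUB1 (1.46), CIPC (1.68), NR1D1 (3.003) and PER3 (1.97) were also called without the libraries of low median, and CDK5, PPP1CB, PPP1CA and DDX5 were not. That fit again rests on CT32 and CT44 alone. Among the other genes named for SHEP, CSNK2A1 (-0.063, limma adjusted p = 0.880) and CREBBP (-0.76, limma adjusted p = 0.0739) were not called on all SKNAS libraries. NMNAT2 did not pass the filter on low values in SKNAS and was not tested.

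Likeness was taken over the 56 SHEP libraries of both conditions together and 14362 genes. Condition was not removed, so a shared difference between MYC-OFF and MYC-ON raises r. The transcripts most like NAMPT were PYGL, YBX3 and FAM184A (Pearson's r 0.976, 0.975 and 0.975). Those most like SIRT1 were STAG1, SAE1 and GXYLT1 (0.869, 0.846 and 0.836), and ZBTB7A and URGCP (0.863 and 0.860) were among the 3 most like CSNK1A1. CSNK1E was most like PACS2, DLG4 and RFNG (0.843, 0.843 and 0.818), FBXW11 most like PIKFYVE, MET and AP2B1 (0.815, 0.807 and 0.795), and BTRC most like RLIM, NOMO1 and CLASP1 (0.803, 0.796 and 0.796). NONO was most like KIF2A and PARN (0.766 each), GSK3B most like SPAG9 and ZMAT3 (0.754 and 0.721), and CSNK1D most like MAGEB17, MICAL2 and MTCL1 (0.733, 0.729 and 0.726).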

How the data were processed

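The deposited TPM values were made by the authors with Salmon 1.3.0 against Gencode 35 (GRCh38) and summed to genes with Tximport 1.12.3, with symbols of Ensembl 101. TPM keeps no read depth, so no counting interval is given. Libraries were grouped by their labels. Here limma 3.58.1 in R 4.3.3 was fitted to log2(TPM + 1) for every gene whose mean TPM reached 1, with CT as a factor for levels and with a cosine of 24 h or a linear term for time, and p-values were adjusted by Benjamini-Hochberg over all genes. Level calls needed an adjusted p of at most 0.05 and a change of at least 0.15, and limma time calls the adjusted p alone. Calls of the damped oscillator had limits of their own, with an adjusted p under 0.05 in SHEP and under 0.1 in SKNAS. All members are named, and of each fixed list the 2 called genes with the largest change in SHEP. The members and lists were chosen with earlier results of these data known. Fits were tested on simulated data. The series numbers of SHEP were checked for pairing (r = 0.489 between the series differences of both conditions over 14362 genes, 2 series per condition). A few items that these rules would name are not reported here.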

Additional observations from a re-analysis of the deposited data

Results flagged for a closer look

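The effect of N-MYC activation differed between the lines by the limma interaction test for 4 members, beside 51.5% of 14870 genes. SKNAS minus SHEP was -0.37 for CSNK1E, -0.52 for FBXW11, -0.45 for NAMPT and -0.70 for NONO on the log2 scale, and none of the 4 was called without the SKNAS libraries of low median.

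The linear trend differed between MYC-ON and MYC-OFF in SHEP, by the limma test of the difference, for 4 members, beside 43.4% of 14362 genes. The difference per 24 h was 0.27 for CSNK1E, 0.28 for GSK3B, -0.21 for SIRT1 and 0.34 for NAMPT, and those of CSNK1E and SIRT1 were not called without replicate 1.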

How the results depend on the processing

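The call of NAMPT in SHEP held under every alternative run (1.05 to 1.11). With the replicate block, which adds the series number as a factor, 4 members were called in SHEP and 2 were higher, so the block changed no call. Of 14362 genes, 4765 were then higher and 5605 lower. Members called higher in SHEP were 1 with series means as replicates, and 1 to 2 when a replicate was left out. All genes called higher were 3443 of 14362 with series means, against 4734 in the main fit. They were 4421 of 14374 without replicate 1 and 4442 of 14323 without replicate 2. SIRT1 in SHEP turned to 0.10 with the library median as covariate. NONO was called higher with that covariate (0.15, limma adjusted p = 0.000438) and turned to -0.044 without replicate 2.

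In SKNAS, members called changed were 0 with no filter and 3 with the covariate, and members higher were 1 after rescaling, 3 with the covariate (CSNK1E, SIRT1 and NAMPT) and 1 without libraries of low median. Rescaling turned CSNK1E to 0.20, GSK3B to 0.092 and SIRT1 to 0.29. The covariate turned CSNK1D to 0.046, CSNK1E to 0.36, BTRC to 0.070, FBXW11 to 0.10, GSK3B to 0.33, SIRT1 to 0.56 and NONO to 0.038. Leaving out libraries of low median turned CSNK1E to 0.025, BTRC to 0.041, GSK3B to 0.026 and SIRT1 to 0.47. The cause was not tested.

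The alternatives of the next comparisons that leave out libraries of low median, and all those of the line levels, slope differences and SKNAS list counts, were chosen after seeing the data. Members whose effect differed between lines were 2 with the covariate, 2 after rescaling and 1 without libraries of low median. For the alternatives of the effect differences, line levels, trends and slope differences, the share of all genes called was not counted. The covariate turned the difference of CSNK1D to 0.095, CSNK1E to 0.045, CSNK1A1 to 0.13, BTRC to 0.31, FBXW11 to 0.10, GSK3B to 0.17 and NAMPT to 0.11. Leaving out libraries of low median turned CSNK1A1 to 0.12, BTRC to 0.39, FBXW11 to 0.089 and NAMPT to 0.28.

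For line levels the covariate gave 1 member higher in MYC-OFF, and 4 lower and 1 higher in MYC-ON. Without libraries of low median 3 were lower and 1 higher in MYC-OFF, and 1 lower and 2 higher in MYC-ON. These counts of members have no share of all genes beside them. In MYC-OFF the covariate turned SIRT1 to 0.016 and NONO to 0.23, rescaling turned NONO to 0.089, and leaving out libraries of low median turned FBXW11 to 0.084, GSK3B to 0.036, SIRT1 to 0.13 and NONO to 0.43. In MYC-ON the covariate turned GSK3B to 0.029, SIRT1 to 0.56 and NONO to 0.13, rescaling turned SIRT1 to 0.16, and leaving out libraries of low median turned CSNK1A1 to 0.020, BTRC to 0.0058, FBXW11 to 0.15, GSK3B to 0.058, SIRT1 to 0.79, NAMPT to 0.041 and NONO to 0.33.

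The oscillator gave 1 rhythmic member for SHEP MYC-OFF, beside 14.2% of genes, and 1 for SHEP MYC-ON, beside 11.9%. Leaving out a replicate gave 0 to 1 members with a trend in SHEP MYC-OFF, 2 to 6 in SHEP MYC-ON, and 2 to 4 with a different trend. No share of all genes was counted for these fits, so the counts say nothing particular to the members. In MYC-ON the covariate turned the slopes of BTRC to 0.074, FBXW11 to 0.015 and NONO to 0.096. Leaving out a replicate moved the BTRC slope between -0.080 and 0.076 and the NONO slope between -0.12 and 0.042. The slope difference of NONO was 0.035 with the covariate and from -0.10 to 0.031 with a replicate left out, and that of CSNK1D was from -0.010 to 0.049.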
